A study of Mus musculus with 6 samples.

Results

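Mitochondrial ribosomal protein genes were taken as every row of the deposited mouse liver expression table whose symbol begins with Mrpl or Mrps followed by a number. The rule gave 78 of the 16123 genes in the table, 49 with an Mrpl symbol (large subunit) and 29 with an Mrps symbol (small subunit). Exercise mice ran 22 km each over 6 weeks and their livers were taken 24 h after the last training, while sedentary mice had no treadmill training, with 3 mice per group. The labels name no genotype, strain, sex or age, and both groups were described as healthy adults, with the circulation flushed with saline at dissection. The study set out to relate moderate running to liver metabolism, and RNA was 1 of several layers it measured. The RNA came from pieces of whole liver, so each value is an average over all cell types in the piece, and fewer cells of a type cannot be told apart from less RNA per cell.

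The mitochondrial ribosome translates the few messenger RNAs that mitochondrial DNA encodes, all of them for core subunits of the respiratory chain and ATP synthase. Its small subunit reads the messenger RNA and its large subunit forms the peptide bonds. Every protein of both subunits is encoded in the nucleus, made in the cytosol and imported. Many have a counterpart in the bacterial ribosome, and the others are found only in mitochondria. Liver parenchyma is rich in mitochondria, and training studies have long followed mitochondrial content as a measure of adaptation.

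The deposited gene counts of the 6 libraries summed to between 17941302 and 18371948 each. Replicates lay close together, and the biological coefficient of variation shared by all tested genes was 1.84%. Over genes with 20 to 2000 reads the mean chi-square per gene, which is 1 under counting noise alone, was 4.23 to 4.36 between libraries of different groups and 1.13 to 1.21 within a group. The design text gives 3 mice per group, but no label ties a library to a mouse, so the p-values measure only the spread between these libraries, which may be technical. Hepatocyte markers summed to 74620 to 75280 FPKM in exercise livers and 73810 to 75250 FPKM in sedentary livers, where FPKM is fragments per kilobase of transcript and unit of library size. By edgeR's test 4 of these 8 markers were higher and 3 lower, against a background of 19.1% higher and 19% lower in exercise livers. Without exercise library 3 or sedentary library 3, 2 were higher. Without TMM 5 were higher and 1 lower, against 34.4% and 11.7% of all tested genes. By limma on TPM 5 were higher and 0 lower, against 36.2% and 8.91%. Markers of other cells also differed, with 6 of 8 tested Kupffer cell markers lower in exercise livers (summed 175.5 to 178.7 FPKM in exercise, 213.3 to 216.8 FPKM in sedentary livers) and none higher. By DESeq2 or without TMM 4 were lower (12.1% and 11.7% of all tested genes were). Without exercise library 2 or sedentary library 1, 5 were lower. Of 8 endothelial markers 3 were higher and none lower (132.6 to 140.6 FPKM in exercise, 120.6 to 121.7 FPKM in sedentary livers). The number higher became 2 by DESeq2 and 8 without TMM, where 12.4% and 34.4% of all tested genes were higher. Without exercise library 1 it was 4, and leaving out any other library gave 2. Of 7 tested stellate cell and fibroblast markers 4 were higher and 1 lower (97.46 to 97.93 FPKM in exercise, 76.2 to 78.58 FPKM in sedentary livers). Cholangiocyte markers summed to 32.72 to 34.58 FPKM in exercise and 62.96 to 65.59 FPKM in sedentary livers. Of 2 tested 1 was lower, namely Spp1 (2 without exercise library 3). Spp1 averaged 45.6 FPKM over all libraries, against a median of 0.867 FPKM for the 5 listed genes, so the sum is mostly that of Spp1. Erythroid markers summed to 334.9 to 351.6 FPKM in exercise and 380.8 to 392.8 FPKM in sedentary livers. Of 5 tested 4 were lower, but 2 without exercise library 2, exercise library 3 or sedentary library 2, and 1 by DESeq2 or without TMM. Pancreatic acinar markers summed to 7.45 to 8.37 FPKM in exercise and 15.75 to 16.3 FPKM in sedentary livers (2 of 2 tested lower). Of these 2, 1 (log2 -8.86) met the minimum mean FPKM for testing only through the sedentary livers, which favours a fall. No marker of these lists was at 0 in every library, and their part in the results that follow was not tested.

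Most mitochondrial ribosomal protein genes had nearly the same level in exercise and sedentary livers. All 78 passed the minimum mean of 1 FPKM and were tested. By edgeR's quasi-likelihood test on counts scaled by TMM, a trimmed mean that sets most genes' change near 0, with a Benjamini-Hochberg adjusted p under 0.05, 2 rose, 7 fell and 69 did not pass. That is 11.5% of the genes, against 38.1% of all 10266 tested genes. Split by direction, 2.56% rose against a background of 19.1%, and 8.97% fell against a background of 19%. At an unadjusted p under 0.05, 2 were higher and 10 lower in exercise livers, against 2358 higher and 2336 lower of the 10266 tested genes. The log2 fold changes of exercise over sedentary livers lay between -0.31 and 0.19, so no gene of the set differed by more than 1.24-fold.

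**Figure D1:**
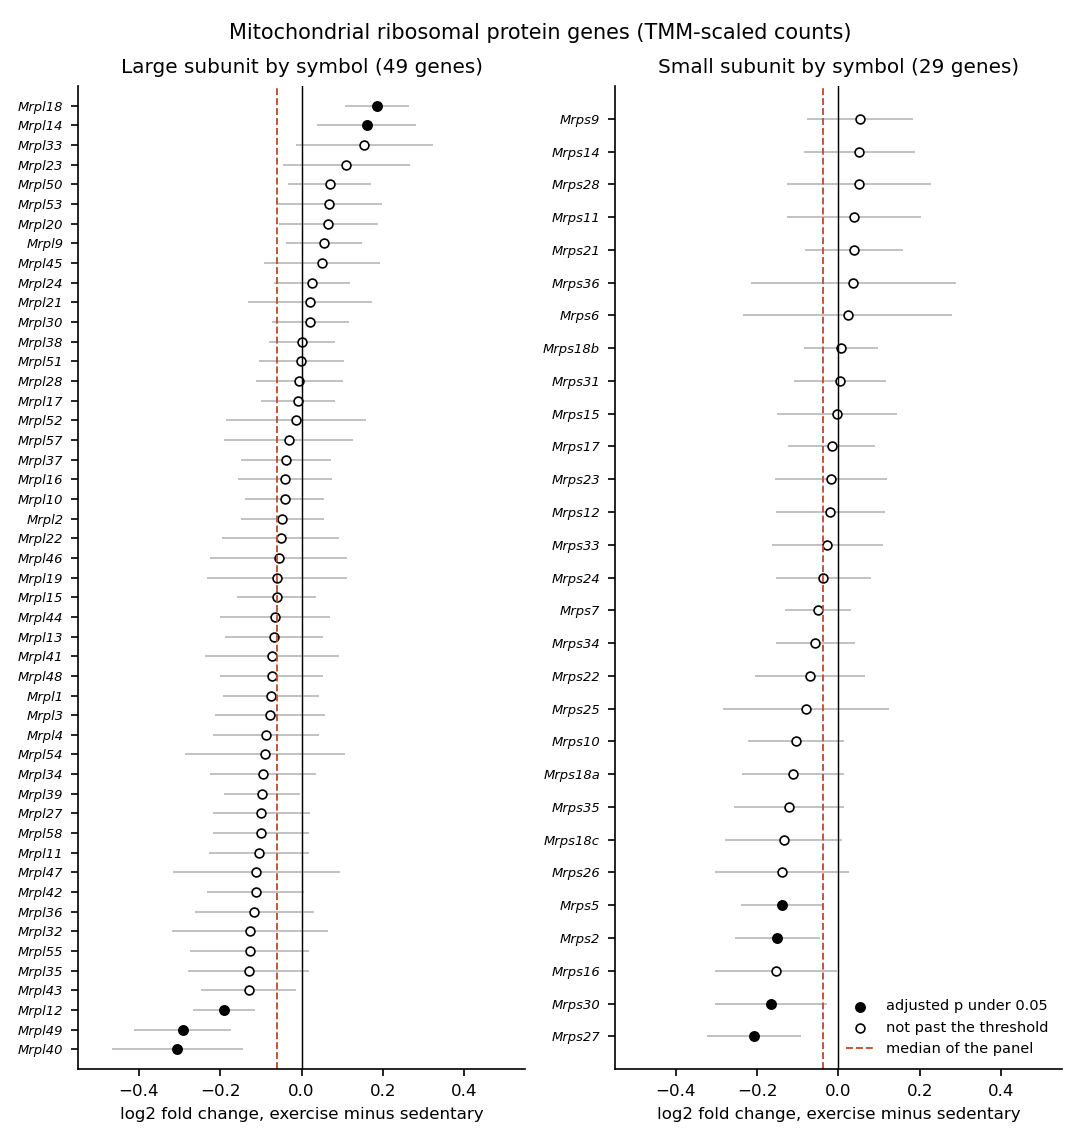
Log2 fold change of exercise over sedentary livers with its 95% interval (x axis) for each of the 49 large subunit and 29 small subunit genes (rows), from TMM-scaled counts. Filled points passed an adjusted p of 0.05, and the dashed lines mark the panel medians of -0.06 and -0.04.

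The precision for these genes was close to that for all tested genes. Their median standard error of the log2 fold change was 0.0638, against 0.0633 over all tested genes, and their median mean count was 368 reads, against 371. Their median absolute log2 fold change was 0.0677, against 0.121 over all tested genes. Changes of more than 1.2-fold were seen for 2 of the 78 (2.56%) and for 2041 of all tested genes (19.9%). The 95% interval of the fold change lay wholly within 1.2-fold in either direction for 57 of the 78 and for 4986 of the 10266 tested genes.

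**Figure D2:**
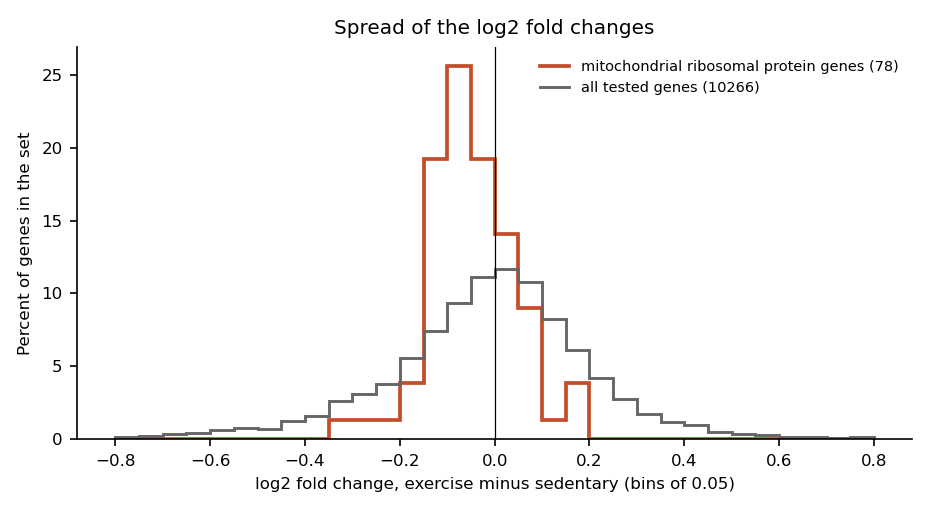
Percent of genes (y axis) in each bin of log2 fold change of exercise over sedentary livers (x axis, bins 0.05 wide, shown between -0.8 and 0.8) for the 78 mitochondrial ribosomal protein genes and all 10266 tested genes. The 78 genes span -0.31 to 0.19, with 56 below 0 and 22 above it.

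The set leaned slightly downward on the TMM scale. The median log2 fold change was -0.05 over the 78 genes, with an interquartile range of -0.10 to 0.01, against -0.0006 over all tested genes. The sign of that lean depends on the scaling, since subunit medians were above 0 when counts were scaled by library total alone or when FPKM or TPM was used. Read against the median of all tested genes in the same fit, the medians stayed below it in the reported fit and the 16 alternatives that give a median, with differences of -0.0634 to -0.0381 for the large subunit and of -0.0610 to -0.0140 for the small subunit.

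Among the large subunit genes 2 rose and 3 fell (10.2%), and among the small subunit genes none rose and 4 fell (13.8%), against 38.1% of all tested genes, 19.1% higher and 19% lower. Without sedentary library 2 only 1 small subunit gene was lower, and 2 were without exercise library 1 or sedentary library 3. Of the large subunit genes 1 was higher without exercise library 2, exercise library 3 or sedentary library 3, and 5 were lower without exercise library 2. No small subunit gene was higher at an unadjusted p under 0.05 by edgeR or DESeq2. The median log2 fold change was -0.06 for the large and -0.04 for the small subunit by TMM-scaled counts, and both signs turned under the scalings just named. Whether the subunits differ from each other was not tested. Placing the genes by the published structure instead of the symbol (Mrps30 and Mrps18a in the large subunit, Mrps36 in neither) gave 51 large subunit genes with 2 higher and 4 lower, and 26 small subunit genes with none higher and 3 lower (11.8% and 11.5% called).

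**Figure D3:**
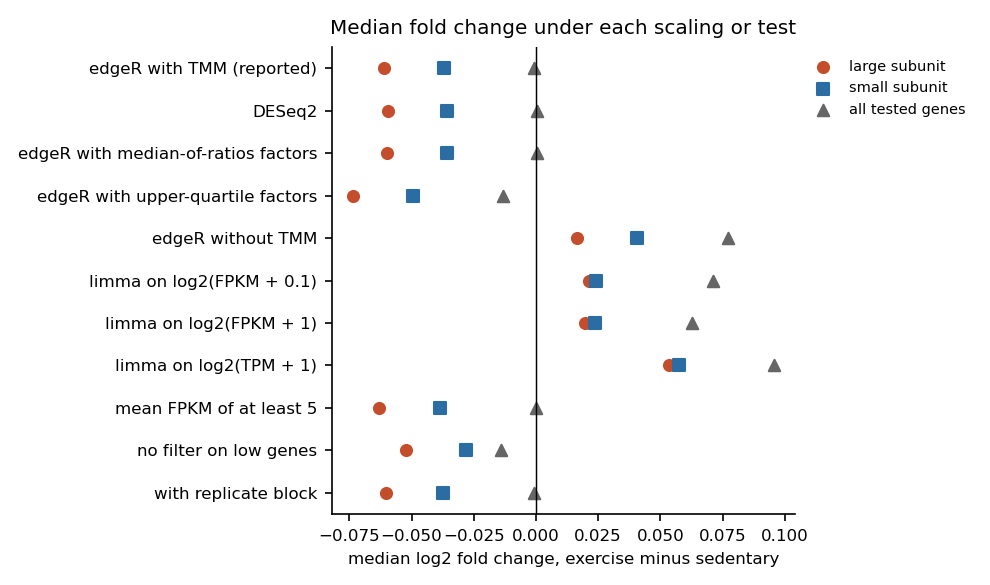
Median log2 fold change of exercise over sedentary livers (x axis) for the large subunit, the small subunit and all tested genes under each scaling or test (rows). Without TMM and with limma on FPKM or TPM all 3 medians lie above 0, and in each row both subunit medians lie left of the median of all tested genes.

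The genes that rose were both in the large subunit. Mrpl18 (gene 67681, chr17:12911345-12917787 on GRCm38.p6) encodes the counterpart of bacterial L18. It had 86.1, 85.7 and 88.8 FPKM in exercise livers, against 80.2, 78.7 and 77.7 FPKM in sedentary livers. The groups did not overlap. Its log2 fold change was 0.19 (SE 0.0392), or 1.14-fold, with an adjusted p of 0.000147 by edgeR. The transcript length implied by its counts and FPKM was 723 bases in exercise and 663 bases in sedentary livers, a difference of 8.97% and the largest of the 78 genes. Mrpl14 (gene 68463, chr17:45685722-45698495) encodes the counterpart of bacterial L14, which lies at the interface between the subunits. It had 71.9, 79.2 and 78.5 FPKM in exercise livers, against 68.5, 66.6 and 63.9 FPKM in sedentary livers. These groups did not overlap either, and the fold change was 1.12-fold (log2 0.16, SE 0.0604, adjusted p = 0.0322). Mrpl14 missed the threshold by DESeq2 (adjusted p = 0.165) and without exercise library 2 (0.119), exercise library 3 (0.133) or sedentary library 3 (0.154).

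Of the 3 large subunit genes that fell, Mrpl40 (gene 18100, chr16:18872018-18876637) and Mrpl49 (gene 18120, chr19:6053630-6057755) encode proteins specific to the mitochondrial ribosome. Mrpl40 had 15.8, 15.1 and 15.3 FPKM in exercise livers, against 18, 19.2 and 17.2 FPKM in sedentary livers. This was the largest change in the set, 1.24-fold lower (log2 -0.31, SE 0.0804, adjusted p = 0.00202), and the groups did not overlap. Mrpl49 had 17.1, 15.8 and 17.5 FPKM in exercise livers, against 17.8, 20.2 and 20.6 FPKM in sedentary livers. It was 1.22-fold lower (log2 -0.29, SE 0.0592, adjusted p = 7.82e-05), with a narrow gap between the highest exercise and the lowest sedentary library. Mrpl49 shares 91 exon bases with Syvn1 on the opposite strand, which rose with a log2 fold change of 1.253, and the sources used here do not state whether counting used strand. By GENCODE M21, 20 of the 78 genes share exon bases with a coding gene on the opposite strand, so their counts are uncertain to that extent. Besides Mrpl49, these include Mrpl18 (141 bases, 10.1%, with Tcp1), Mrpl14 (106 bases, 11.2%, with Tmem63b) and Mrps30 (623 bases, 9.35%, with B430218F22Rik). On either strand, 23 of the 78 share exon bases with another coding gene. Mrpl53 shares 88.0% with Gm42688 on the same strand. Mrps34 shares 63.4% with Mapk8ip3 on the opposite strand and 37.0% with Nme3 on the same strand.

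Mrpl12 (gene 56282, chr11:120484637-120488754), the counterpart of the bacterial stalk protein L7/L12 that recruits translation factors, was among the most abundant members. It had 98.2, 96.6 and 93.3 FPKM in exercise livers, against 108, 101 and 105 FPKM in sedentary livers. All exercise libraries lay below all sedentary libraries. The change was 1.14-fold lower (log2 -0.19, SE 0.0377, adjusted p = 5.27e-05), the smallest adjusted p of the 78 genes.

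**Figure D4:**
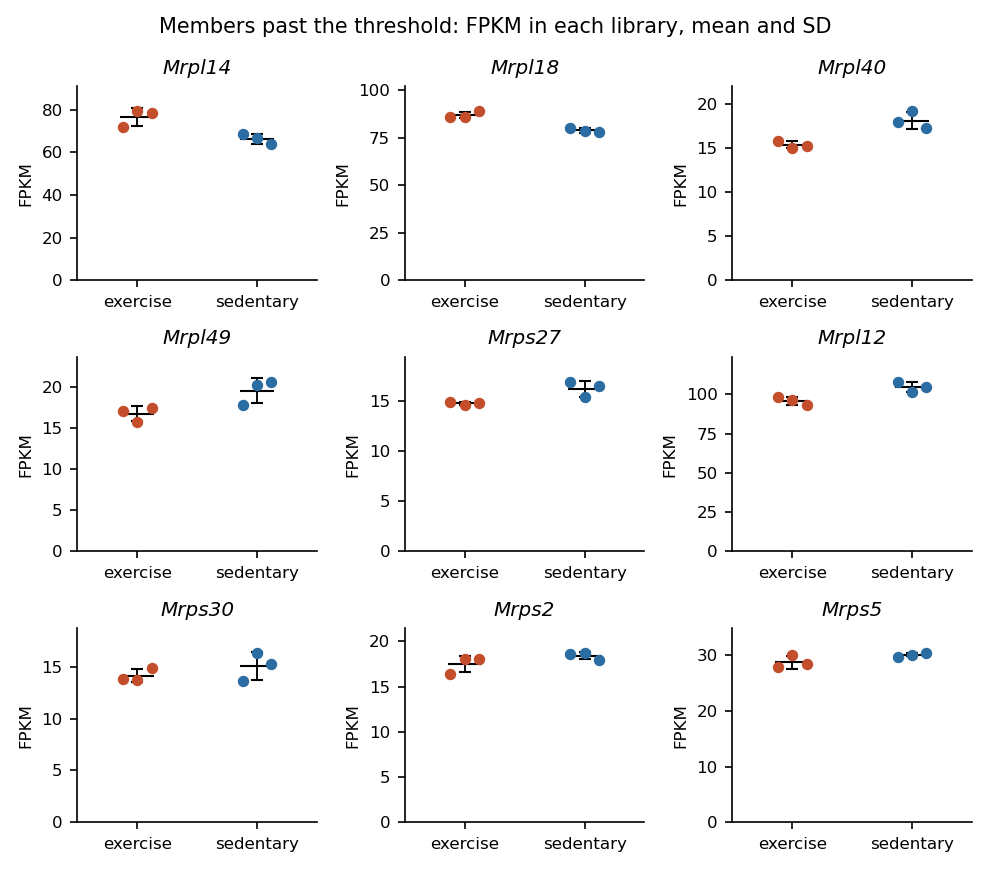
FPKM (y axis, from 0) in each of 3 exercise and 3 sedentary libraries (points) with mean and SD (bars) for the 9 genes past an adjusted p of 0.05 by TMM-scaled counts. Groups are apart in Mrpl18, Mrpl14, Mrpl40, Mrpl49, Mrpl12 and Mrps27 and overlap in Mrps30, Mrps2 and Mrps5.

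In the small subunit Mrps27 (gene 218506, chr13:99344767-99415562) encodes an RNA-binding protein of the pentatricopeptide repeat family. It had 14.9, 14.6 and 14.8 FPKM in exercise livers, against 16.9, 15.4 and 16.5 FPKM in sedentary livers. The groups did not overlap, and it was 1.16-fold lower (log2 -0.21, SE 0.0576, adjusted p = 0.00338). It missed the threshold without TMM (adjusted p = 0.0608) and by limma on TPM (0.0940).

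The other 3 that fell were nearer the threshold, and their FPKM values overlapped between groups. On TMM-scaled counts, which the test used, the groups overlapped for Mrps30 but not for Mrps2 or Mrps5. Mrps2 (gene 118451, chr2:28465951-28471177), the counterpart of bacterial S2, had 16.42, 18.02 and 18.03 FPKM in exercise livers, against 18.55, 18.66 and 17.95 FPKM in sedentary livers (log2 -0.15, adjusted p = 0.0184). Mrps5 (gene 77721, chr2:127587426-127603986), whose bacterial counterpart S5 acts in decoding accuracy, had 27.79, 29.99 and 28.33 FPKM in exercise livers, against 29.75, 30.08 and 30.32 FPKM in sedentary livers (log2 -0.14, adjusted p = 0.0241). Mrps30 (gene 59054, chr13:118380110-118387252) has a small subunit symbol but its protein sits in the large subunit. It had 13.8, 13.7 and 14.8 FPKM in exercise livers, against 13.7, 16.3 and 15.3 FPKM in sedentary livers (log2 -0.17, adjusted p = 0.0490). Each of these calls was lost when any of several libraries was left out. Mrps2 missed the threshold without exercise library 1 (0.159), sedentary library 1 (0.0512) or sedentary library 2 (0.0554). Mrps5 missed it without exercise library 1 (0.1204) or 3 (0.0615), or sedentary library 2 (0.0546) or 3 (0.0654). Mrps30 missed it without exercise library 1 (0.142) or 2 (0.145), or sedentary library 2 (0.290) or 3 (0.115). DESeq2 gave adjusted p values of 0.123, 0.146 and 0.213 for Mrps2, Mrps5 and Mrps30.

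Just past the threshold on the other side, Mrpl43 averaged 27.1 ± 1.76 FPKM in exercise and 28.2 ± 0.978 FPKM in sedentary livers (SD, n = 3 each; log2 -0.13, edgeR adjusted p = 0.0732). Mrpl39 averaged 20.3 ± 0.706 FPKM in exercise and 20.8 ± 0.291 FPKM in sedentary livers (log2 -0.10, adjusted p = 0.0950). In the small subunit, Mrps16 averaged 41.1 ± 2.32 FPKM in exercise and 43.9 ± 1.65 FPKM in sedentary livers (log2 -0.15, adjusted p = 0.103). Mrps18c averaged 78.1 ± 4.42 FPKM in exercise and 82.9 ± 3.41 FPKM in sedentary livers (log2 -0.13, adjusted p = 0.136). Of Mrpl43's exon bases 33.4% are shared with Twnk.

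Levels within the set differed far more between genes than between groups. Mean FPKM over all 6 libraries ran between 1.395 for Mrps25 and 134 for Mrps21, with a median of 25.9. Mrps21 had 139, 129 and 145 FPKM in exercise livers, against 130, 130 and 130 FPKM in sedentary livers (log2 0.04, adjusted p = 0.652). Mrpl52 had 113, 102 and 113 FPKM in exercise livers, against 99.5, 116 and 108 FPKM in sedentary livers (log2 -0.01, adjusted p = 0.921). Both have very short implied lengths, 179 and 114 bases in exercise livers, which raises FPKM for a given count. At the low end, Mrps25 averaged 1.393 ± 0.0404 FPKM in exercise and 1.397 ± 0.166 FPKM in sedentary livers (SD, n = 3 each), and Mrpl19 averaged 2.62 ± 0.119 and 2.58 ± 0.285 FPKM in exercise and sedentary livers. Neither passed the test. Mrps25 shares 69.8% of its exon bases with Nr2c2 on the opposite strand, and Mrpl19 shares 36.0% with Gcfc2, so their levels are uncertain.

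Of the other genes whose symbol and place disagree, Mrps18a, a large subunit protein, averaged 36.2 ± 0.737 FPKM in exercise and 37.3 ± 1.82 FPKM in sedentary livers (log2 -0.11, adjusted p = 0.156). Mrps36, now known as a component of the oxoglutarate dehydrogenase complex, had 16, 16.3 and 11.3 FPKM in exercise livers, against 13.2, 12.7 and 14.8 FPKM in sedentary livers (log2 0.04, adjusted p = 0.849). Its exercise libraries covered the whole sedentary range.

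Members with a bacterial counterpart and those specific to mitochondria, as classed by their unified names, were also counted apart. By these names Mrps18a (mL66) and Mrps18b (mS40) are mitochondrion-specific, while Mrps18c (bS18m) has a bacterial counterpart. Of the 46 with a bacterial counterpart 2 rose and 3 fell, with a median log2 fold change of -0.04 and 31 below 0 on the TMM scale. Of the 31 mitochondrion-specific proteins none rose and 4 fell, with a median of -0.07 and 25 below 0 on that scale. The shares called were 10.9% and 12.9%, both below the 38.1% of all tested genes. None of these 31 was higher at an unadjusted p under 0.05, and the difference between the classes was not tested.

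The counts were also set against the background of each other test. DESeq2 called 1 of the 78 genes higher and 4 lower, against 12.4% and 12.1% of all tested genes. Without TMM 7 were higher and 3 lower, against 34.4% and 11.7%. With limma on log2(FPKM + 1) 6 were higher and 4 lower, against 27.9% and 10.7%, and a pseudocount of 0.1 gave the same counts, against 27.8% and 10.7%. With limma on TPM 16 were higher and 3 lower, against 36.2% and 8.91%. With no filter on low genes 2 were higher and 5 lower, against 12.3% and 12%. With the minimum mean raised to 5 FPKM, which 75 of the genes reached, 2 were higher and 7 lower, against 22.2% and 21.6%. No member passed the test against a 1.2-fold change, against 2.33% higher and 4.03% lower of all genes, or the test with an assumed variation of 0.1, against 0.487% and 1.23%. With exercise library 1, 2 or 3 left out, 17%, 16.7% and 17.1% of all tested genes were higher and 16.4%, 16.5% and 16.9% lower. With sedentary library 1, 2 or 3 left out, 17.2%, 16.7% and 16.7% were higher and 16.9%, 17.1% and 16.8% lower. In these 6 fits 1 to 2 of the genes were higher and 4 to 8 lower. In each of these fits the members' share lay below the background in both directions.

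Summed over genes, the direction depended on the scale. Large subunit genes summed to 1721, 1723 and 1724 FPKM in exercise livers, against 1697, 1676 and 1660 FPKM in sedentary livers, a ratio of 1.03 with no overlap. Small subunit genes summed to 940, 931 and 935 FPKM in exercise livers, against 927, 934 and 918 FPKM in sedentary livers, a ratio of 1.01 with overlap. On TMM-scaled CPM (counts scaled by library size), large subunit sums were 1206, 1203 and 1221 in exercise livers and 1250, 1243 and 1230 in sedentary livers, a ratio of 0.9754. Small subunit sums on that scale were 616, 616 and 625 in exercise livers and 649, 650 and 634 in sedentary livers, a ratio of 0.961. The groups did not overlap for either subunit on that scale. The same contrast thus runs upward in FPKM and downward in TMM-scaled counts, and the sums differed by 2.67% and 0.960% in FPKM and by -2.46% and -3.88% in TMM-scaled counts. As background, the median log2 fold change of all tested genes was 0.0626 by limma on log2(FPKM + 1) and -0.0006 on the TMM scale. The large over small ratio of summed FPKM was 1.831, 1.852 and 1.844 in exercise livers, against 1.83, 1.796 and 1.809 in sedentary livers. In TMM-scaled CPM it was 1.957, 1.952 and 1.953, against 1.927, 1.911 and 1.939. With genes placed by structure the groups overlapped on both scales, and the difference was not tested.

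Per gene, the FPKM values of the groups did not overlap for 15 of the 78, with exercise above sedentary for 11 and below it for 4. Over all tested genes groups were apart for 51%, with 36.6% above and 14.3% below. On TMM-scaled CPM more of the 78 lay wholly below the sedentary libraries than wholly above them. The median log2 fold change of all tested genes was also lower on the TMM scale than in FPKM. The share of all tested genes apart on TMM-scaled CPM was not counted, so this turn is not read as a result about the members. An exact permutation test of 3 against 3 libraries cannot go below 0.1.

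Other genes of mitochondrial translation and of mitochondrial DNA expression, with their nuclear regulators, were tested alongside. Of 87 tested genes in 6 lists, 7 rose, 19 fell and 61 did not pass, with a median log2 fold change of -0.02. The shares were 8.05% higher and 21.8% lower, against 19.1% and 19% of all tested genes. Among 5 mitoribosomal proteins with other symbols, Ptcd3, an RNA-binding small subunit protein, fell to 13.6 ± 0.659 FPKM in exercise livers, against 14.6 ± 0.602 FPKM in sedentary livers (log2 -0.17, adjusted p = 0.00673). Ptcd3 missed the threshold by DESeq2 (0.0668), without TMM (0.135) and without exercise library 2 (0.0644). The other 4 did not pass, among them the GTP-binding small subunit protein Dap3 (log2 -0.10, adjusted p = 0.0986) and the large subunit protein Gadd45gip1 (log2 0.15, adjusted p = 0.0934). Gadd45gip1 passed without sedentary library 3 (0.00399), without TMM (0.00686) and by limma on TPM (0.0322).

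Of the 14 translation factors tested, 7 fell on the TMM scale (50%, against a background of 19% lower) and none rose, also not at an unadjusted p under 0.05. DESeq2 called 0 higher and 4 lower (12.1% of all tested genes were lower), edgeR without TMM 2 higher and 4 lower (11.7%), and limma on TPM 1 higher and 2 lower (8.91%). The list median was -0.08 as reported, 0.0003 without TMM and 0.03 by limma on TPM. Tufm, the elongation factor that delivers aminoacyl-tRNA, fell to 69.8 ± 1.66 FPKM in exercise livers, against 72.0 ± 0.563 FPKM in sedentary livers (SD, n = 3 each; log2 -0.12, edgeR adjusted p = 0.00339), and it missed the threshold without TMM (0.336). Its nucleotide exchange factor Tsfm fell to 11.2 ± 1.46 FPKM in exercise livers, against 13.5 ± 0.609 FPKM in sedentary livers (log2 -0.33, adjusted p = 0.00303). Taco1, an activator of cytochrome oxidase subunit I translation, fell to 10.5 ± 0.258 FPKM in exercise livers, against 12.2 ± 0.769 FPKM in sedentary livers (log2 -0.29, adjusted p = 0.000686). The ribosome recycling factor Mrrf averaged 9.97 ± 0.443 FPKM in exercise and 11.1 ± 0.280 FPKM in sedentary livers (log2 -0.22, adjusted p = 0.00305).

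Genes for assembly of the mitochondrial ribosome and modification of its RNA went both ways, with 3 of 26 tested higher and 4 lower by edgeR, 11.5% and 15.4% against 19.1% and 19% of all tested genes. DESeq2 called 0, against 12.4% and 12.1%. Without exercise library 2 or 3, 1 was higher. The ribosomal RNA methyltransferase Nsun4 rose (log2 0.19, adjusted p = 0.00966), while the assembly factor Mpv17l2 (log2 -0.33, adjusted p = 0.00699), the methyltransferase Mrm3 (log2 -0.32, adjusted p = 0.0106) and the pseudouridine synthase Trub2 (log2 -0.27, adjusted p = 0.0136) fell. Without 1 library, Nsun4 (exercise 3, 0.0580), Mrm3 (exercise 1, 0.0713) and Trub2 (sedentary 2, 0.0789) missed the threshold. Of 20 tested enzymes that charge or finish mitochondrial aminoacyl-tRNAs, 3 fell (15%, against 19% of all tested genes) and none rose, namely Tars2 (log2 -0.26, adjusted p = 0.000365), Pars2 (log2 -0.60, adjusted p = 0.00414) and Mtfmt (log2 -0.29, adjusted p = 0.0217). Mtfmt missed the threshold by DESeq2 (0.134) and in 4 of 6 fits that left out a library, without exercise 1 (0.0571) or 3 (0.0710) or sedentary 1 (0.0761) or 3 (0.0660).

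In mitochondrial DNA transcription and copying 1 of 12 tested genes rose and 2 fell, 8.33% and 16.7% against 19.1% and 19% of all tested genes. The DNA helicase Twnk rose to 11.5 ± 0.330 FPKM in exercise livers, against 8.87 ± 0.150 FPKM in sedentary livers (log2 0.31, adjusted p = 8.49e-06). The transcription elongation factor Tefm fell (log2 -0.29, adjusted p = 0.0162, but 0.108 by DESeq2 and 0.0704, 0.0660 and 0.0866 without exercise 1, exercise 2 or sedentary 3), as did Mterf2, which had 0.943 ± 0.0907 FPKM in exercise and 1.77 ± 0.327 FPKM in sedentary livers (log2 -1.01, adjusted p = 0.000150). Mterf2 met the minimum mean FPKM only through the sedentary livers, which favours a fall. Tfam, which packages mitochondrial DNA and starts its transcription, did not pass (log2 0.06, adjusted p = 0.311). It did without TMM (0.0138) and by limma on TPM (0.0211).

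Among 10 nuclear regulators of mitochondrial gene programs 3 rose and 2 fell, 30% and 20% against 19.1% and 19% of all tested genes. Myc, a transcription factor of growth, fell to 0.690 ± 0.161 FPKM in exercise livers, against 2.39 ± 0.147 FPKM in sedentary livers (log2 -1.86, adjusted p = 1.11e-12). Yy1 rose to 14.0 ± 0.694 FPKM in exercise livers, against 11.4 ± 0.484 FPKM in sedentary livers (log2 0.26, adjusted p = 2.52e-07). The coactivator Pprc1 rose to 4.79 ± 0.263 FPKM in exercise livers, against 3.33 ± 0.308 FPKM in sedentary livers (log2 0.45, adjusted p = 4.49e-07). Gabpb2, a subunit of the ETS-type factor GABP, rose as well (log2 0.23, adjusted p = 0.000109). The change of Pprc1 was larger in size than that of any mitochondrial ribosomal protein gene. Myc met the minimum mean of 1 FPKM only through the sedentary livers, which favours a fall, so its size is not compared.

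Some mitochondrial ribosomal protein genes start head to head with a neighbour on the opposite strand. Of the 69 members with a start in the RefSeq table of GRCm38.p6, 23 had an opposite-strand neighbour whose start lay within 500 bases. Of the 19 members whose neighbour was tested, 5 had one that rose and 1 had one that fell. That is 31.6%, against a background of 38.1%, or 19.1% higher and 19% lower. Mrpl46 and Mrps11 are each other's neighbour, so that pair is counted from both sides. In 3 pairs both genes passed. Mrpl40 fell while Hira, a histone chaperone 113 bases away, rose (log2 0.19, adjusted p = 0.0340). Mrpl49 fell while Fau, 192 bases away and encoding a cytosolic small subunit protein fused to a ubiquitin-like part, rose to 506 ± 12.7 FPKM in exercise livers, against 452 ± 9.83 FPKM in sedentary livers (log2 0.11, adjusted p = 0.00561). Mrpl14 and Tmem63b, 131 bases apart, both rose, and they share 106 exon bases (Tmem63b log2 0.11, adjusted p = 0.0255). Twnk, whose rise is given above, starts 116 bases from Mrpl43. Differences within pairs were not tested.

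**Figure D5:**
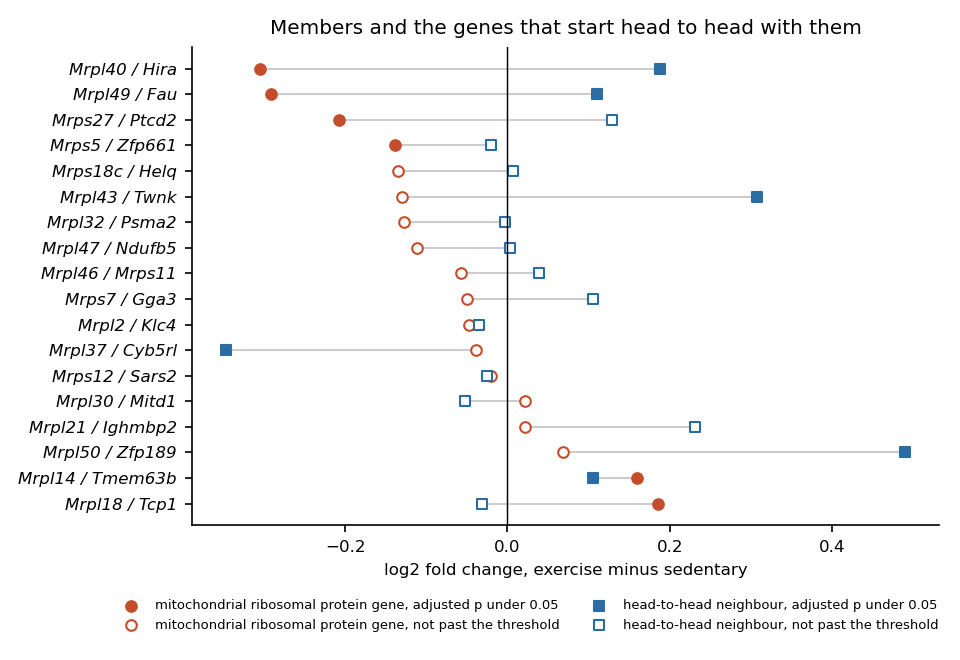
Log2 fold change of exercise over sedentary livers (x axis) for each mitochondrial ribosomal protein gene (circles) and the tested gene that starts head to head with it (squares), with filled symbols past an adjusted p of 0.05. Mrpl40 and Mrpl49 lie left of 0 with Hira and Fau right of it, while Mrpl14 and Tmem63b both lie right of it.

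The 250 bases before the start listed for each gene were searched on both strands for the motifs of 3 regulators of nuclear mitochondrial genes. The NRF1 motif GCGCANGCG was found for 13 of 69 members (18.8%), against 11.9% of the 8323 tested genes in the table. The ETS motif CCGGAAG, which GABP binds, was found for 17 (24.6%), against 14.6%. The YY1 motif AAGATGGCG was found for 2 (2.90%), against 1.24%. At least 1 of the 3 was found for 30 members (43.5%), against 25.3% of tested genes. No ETS match overlapped another of the motifs. Of the 9 genes past the threshold, Mrpl18 and Mrps27 hold an ETS match and Mrpl12 an NRF1 match, and the other 6 hold none of the 3. The searched sequences from RefSeq (GRCm38.p6) are shown because they are the called genes with a match, written 5′ to 3′ on the gene's strand with the match in capitals. They lie at chr17:12916092-12916341 (minus strand, Mrpl18), chr11:120484387-120484636 (plus strand, Mrpl12) and chr13:99344536-99344785 (plus strand, Mrps27). The start listed for Mrpl18 lies 1696 bases inside the outer end of its RefSeq gene span, so its window is within the gene as given above, and 19 bases of the Mrps27 window are within that gene. Of the 69 members' windows 47 lie wholly outside the gene span, 10 partly inside and 12 wholly inside.
Mrpl18: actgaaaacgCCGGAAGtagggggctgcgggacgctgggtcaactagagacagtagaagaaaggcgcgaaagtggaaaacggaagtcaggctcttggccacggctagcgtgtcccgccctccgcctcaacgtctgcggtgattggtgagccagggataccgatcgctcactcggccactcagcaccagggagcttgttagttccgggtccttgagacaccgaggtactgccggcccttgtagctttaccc
Mrpl12: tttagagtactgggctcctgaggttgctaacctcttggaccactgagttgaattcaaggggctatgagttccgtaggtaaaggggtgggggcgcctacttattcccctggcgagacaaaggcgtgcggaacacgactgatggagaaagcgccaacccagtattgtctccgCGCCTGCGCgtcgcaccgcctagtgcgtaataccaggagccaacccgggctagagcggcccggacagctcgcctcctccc
Mrps27: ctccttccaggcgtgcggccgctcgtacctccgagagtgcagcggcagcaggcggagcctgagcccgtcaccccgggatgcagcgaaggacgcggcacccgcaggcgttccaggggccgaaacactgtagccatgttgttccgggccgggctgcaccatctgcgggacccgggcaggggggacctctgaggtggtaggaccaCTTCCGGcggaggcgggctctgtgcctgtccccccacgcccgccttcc
In Mrpl12 and Mrps27 the match is on the opposite strand. Mrpl18 rose and Mrps27 fell with a match to the same motif, and a match is a description of these letters only.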

How the data were processed

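RNA was measured in 3 exercise and 3 sedentary mouse livers. Per the labels' protocols, RNA was extracted with TRIzol and read in pairs on a DNBseq instrument, and the submitters' processing notes list GRCm38.p6 with featureCounts, cutadapt and MultiQC. The aligner, annotation, tool versions and use of strand: not given in the sources used here. Per the file headers, the authors deposited a read count, an FPKM and a TPM value for each gene and library. The deposited counts were treated as estimated counts, because 1165 of 16123 genes had a value that was not whole (the reason is not stated), and they were rounded to whole numbers here (Mrpl39 was the member concerned). Deposited FPKM and TPM values were taken as given and used for levels, sums and alternatives.

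The 10266 genes whose mean FPKM reached 1 were tested with edgeR 4.0.16 (R 4.3.3), quasi-likelihood F test with TMM factors over all 6 libraries, and p-values were adjusted by Benjamini-Hochberg over all of them with a threshold of 0.05. Alternatives used DESeq2 1.42.0, limma 3.58.1 on log2(value + 1) or log2(value + 0.1), other scalings and filters, a test against a 1.2-fold change, an assumed variation of 0.1, a replicate block, and each library left out. Scripts were tested on simulated data. Groups were taken from the labels, and the design text names 3 mice per group. Summed gene counts between 17941302 and 18371948 per library limit precision by counting, most for low genes. P-values measure only the spread between these libraries. The named genes were, per subunit, up to 8 past the threshold in each direction, the 2 highest and 1 lowest by mean FPKM, 2 on either side of the threshold, 3 whose symbol and place in the structure disagree, and up to 4 with the smallest p per pathway list. Motif forms, neighbours and a few other genes were chosen after values were seen. The members and lists were chosen with earlier results of these data known. Exon overlaps are from GENCODE M21, and starts, gene positions and sequences are from RefSeq.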

Additional observations from a re-analysis of the deposited data

How the results depend on the processing

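Mrpl18, Mrpl12, Mrpl40 and Mrpl49 passed in all 6 fits that left out a library and in 10 of the 12 other alternatives, missing in the test against a 1.2-fold change and with an assumed variation of 0.1. No mitochondrial ribosomal protein gene past the threshold changed sign in these alternatives. The large subunit counts, 2 higher and 3 lower as reported, became 1 higher with DESeq2, 7 without TMM, 4 with limma on FPKM at either pseudocount and 11 with limma on TPM. The small subunit counts, 0 higher and 4 lower, became 2 higher with limma on FPKM at either pseudocount and 5 on TPM, and 1 lower with DESeq2 or limma on FPKM, 2 with no filter on low genes and 0 without TMM or on TPM. The edgeR test against a 1.2-fold change and the edgeR test with an assumed variation of 0.1 called 0 members in either direction, also 0 at an unadjusted p under 0.05. The large subunit median of -0.061 became 0.017 without TMM, 0.021 and 0.020 with limma on FPKM at pseudocounts of 0.1 and 1, and 0.053 on TPM. The small subunit median of -0.037 became -0.050 with upper-quartile factors, 0.041 without TMM, 0.024 with limma on FPKM at either pseudocount and 0.058 on TPM. The median of all tested genes moved by less than 0.1 on the log2 scale under every scaling. The ratios of summed levels became 1.05 and 1.03 in TPM and 0.9754 and 0.9612 in TMM-scaled counts for the large and small subunit. The genes of the 6 pathway lists, 7 higher and 19 lower, became 4 and 9 with DESeq2, 0 and 2 with an assumed variation of 0.1, 1 and 2 in the test against a 1.2-fold change, 16 and 10 without TMM, 12 and 10 with limma on FPKM at either pseudocount and 19 and 7 on TPM, and a mean FPKM of at least 5 left 4 higher. The cause was not tested.

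Leaving out 1 library gave 1 to 2 higher and 3 to 5 lower large subunit genes, and 0 higher and 1 to 3 lower small subunit genes (1 lower without sedentary library 2, and 2 without exercise library 1 or sedentary library 3). The medians lay between -0.0615 and -0.0419 for the large and between -0.0607 and -0.0271 for the small subunit. The ratios of summed FPKM lay between 1.021 and 1.033 for the large and between 1.005 and 1.014 for the small subunit. The pathway lists had 5 to 8 higher and 15 to 18 lower.

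With the replicate number as a block (all tested genes 18.8% higher and 18.7% lower), 2 large subunit genes were higher and 3 lower, and 0 small subunit genes were higher and 3 lower, with medians of -0.0604 and -0.0373, and 7 genes of the pathway lists were higher and 19 lower. Mrps30 then had an adjusted p of 0.0502. Same-numbered libraries correlated between -0.0266 and 0.0262 in their deviations from the group means, and 2 of 6 correlated best with their own number. These deviations lie close to counting noise, which keeps such correlations near 0, so the check cannot tell whether the number pairs the libraries.

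Counting limits the genes of low count most, and their small differences were not detectable at this depth. With 3 libraries per group whose spread lay close to counting noise, p-values are sensitive to the variation assumed.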

Other observations

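The transcript length implied by a gene's count and FPKM agreed within 5% between the groups for 76 of the 78 genes. Mrpl18 was 8.97% longer in exercise livers, at 729, 718 and 720 bases, against 651, 668 and 670 bases in sedentary livers. Mrpl1 was shorter in exercise livers, at 2006, 1923 and 1953 bases, against 2062, 2119 and 2018 bases in sedentary livers. The groups do not overlap for either gene. Of 10265 tested genes with a length in both groups, 320 (3.12%) differed by more than 5%. Mrpl1 did not pass the count test, while its FPKM values were higher in every exercise library than in any sedentary library. Its TMM-scaled CPM ran the other way, at 21.89, 20.96 and 21.69 in exercise and 23.23, 22.53 and 22.22 in sedentary livers.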
